A study of Rattus norvegicus with 12 samples.

Results

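The interferon response and innate immune genes described here are 9 named genes, Irf7, Irf1, Stat2, Igtp, Gbp2, Mx1, Ifi44, Tlr2 and Cd14, chosen by name and matched to the array through the gene symbols of its platform annotation. Of the 9 genes, 8 have a named probe among the 12978 genes named on the array, each of the 8 by a single probe, and Stat2 has no named probe here. They were measured in 12 subcutaneous tumors grown in athymic female nude mice from C6 cells, an established rat glioma line, with 1 rat array (Illumina RatRef-12) per tumor. Of these, 6 came from mice injected intraperitoneally, from 3 days after inoculation and for 19 days, with (R,R')-4-methoxy-1-naphthylfenoterol (MNF, an analog of the beta2-adrenergic agonist fenoterol) at 2 mg/kg in 100 µM ascorbic acid in saline, and 6 from mice given that vehicle alone. Each treatment group holds 3 tumors of cohort 1 (replicates 1 to 3) and 3 of cohort 2 (replicates 4 to 6). One figure legend of the study gives a shorter treatment and citrate in PBS as vehicle, where the methods and labels give the schedule above. All groups share the host, strain SWISS nu+/nu+ in the labels. Nude mice lack T cells but keep natural killer cells and macrophages, and their RNA is mouse RNA, read here only as far as it hybridizes to rat probes.

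Interferons are secreted when cells sense viral nucleic acids or microbial products. They act through receptors and Janus kinases on transcription factors, among them complexes with STAT2 and IRF9, which bind interferon-stimulated response elements (ISRE), whereas the response to interferon gamma uses gamma-activated sites (GAS). The induced genes include the transcription factors Irf1 and Irf7, guanosine triphosphatases that restrict intracellular microbes (Igtp, Gbp2, Mx1), and the machinery that loads peptides on MHC class I. Tlr2 and Cd14 stand at the other end of the pathway, as a receptor of bacterial lipoproteins and the co-receptor that hands lipopolysaccharide to toll-like receptor 4.

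Promoter sequences of all 9 genes were taken from RefSeq (rat build GRCr8), as the 300 bases from 250 before to 50 after the annotated start. They were searched on both strands for an ISRE core (GAAA, any 2 bases, GAAA), a GAS (TTC, any 3 bases, GAA) and an NF-kB site (GGG, any 2 bases, TTTCC). The ISRE core was present in 4 of 9 (Irf7, Igtp, Ifi44 and Gbp2), beside 3.77% of all 27457 promoters searched. A GAS was present in 2 of 9 (Irf1 and Igtp), beside 8.68% of all promoters, and the NF-kB letters were in none of the 9, beside 1.51%. No member's motifs overlapped. The 150 bases before the start are shown for the 5 genes with a match. They lie at chr1:205800024-205800173 (Irf7, minus strand), chr10:38417785-38417934 (Irf1, plus strand), chr10:42874897-42875046 (Igtp, plus strand), chr2:234005577-234005726 (Gbp2, plus strand) and chr2:243303841-243303990 (Ifi44, minus strand), each printed along its gene. Capitals mark the matches.
Irf7: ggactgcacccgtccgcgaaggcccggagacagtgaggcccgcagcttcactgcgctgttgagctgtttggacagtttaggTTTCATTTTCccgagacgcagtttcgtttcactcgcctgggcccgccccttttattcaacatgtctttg
Irf1: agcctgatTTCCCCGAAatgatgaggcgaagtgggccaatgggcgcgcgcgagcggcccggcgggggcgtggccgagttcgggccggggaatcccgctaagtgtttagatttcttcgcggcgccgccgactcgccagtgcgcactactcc
Igtp: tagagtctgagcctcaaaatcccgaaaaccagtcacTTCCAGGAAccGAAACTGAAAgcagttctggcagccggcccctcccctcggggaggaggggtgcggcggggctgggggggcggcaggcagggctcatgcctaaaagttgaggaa
Gbp2: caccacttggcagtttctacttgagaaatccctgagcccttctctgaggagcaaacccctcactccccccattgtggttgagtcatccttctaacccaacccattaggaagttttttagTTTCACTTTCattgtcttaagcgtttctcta
Ifi44: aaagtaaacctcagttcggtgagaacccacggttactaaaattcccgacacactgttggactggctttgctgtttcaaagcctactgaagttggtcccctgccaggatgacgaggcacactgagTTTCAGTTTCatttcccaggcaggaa
In Igtp the GAS began 114 bases before the start and the ISRE core 103 bases before it. The ISRE core of Irf7 began 69, that of Gbp2 31 and that of Ifi44 26 bases before the start, each on the strand opposite to the gene and so printed as its reverse complement. Ifi44 had a second ISRE core beginning 27 bases into the transcript, outside the run shown. The GAS of Irf1 began 142 bases before the start. A match is a description of letters and not a site shown to be bound in these tumors. The lack of a match, as for the NF-kB letters, holds for the exact letters searched. Sites of other spelling were not searched for.

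The authors' signals had a mean of 500.4 to 858 per array (median 715) in the MNF group and of 708 to 1062 (median 862) in the vehicle group, with 8733 to 9562 and 8849 to 9457 probes detected at a detection p-value under 0.02. MNF replicate 1 was the dimmest array, and 10 of 12 measured C6 glioma markers were detected on every array. All values below are log2 signals after Z-normalization of each array, rescaled to log2 units, so that a difference of 1 is a doubling. Levels on this scale depend on the probe, so the genes are not ranked against each other by amount of RNA. Of the 8 measured genes, 7 were detected on every array, and Mx1 was detected on 4 arrays, 2 of each treatment group (MNF replicates 1 and 2, vehicle replicates 3 and 5). On the other 8 arrays Mx1 was not above background, so its differences there are between values of background size. In these bulk samples, fewer cells of a type and less RNA per cell cannot be told apart.

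Irf7, the factor that drives type I interferon production and is itself induced by interferon, had the widest range of the 8 genes, 2.19 log2 units over the 12 tumors. Its levels in MNF replicates 1, 2 and 3 were 10.58, 10.21 and 9.18, and in MNF replicates 4, 5 and 6 they were 10.21, 8.70 and 8.70. In the vehicle tumors Irf7 was 9.52, 9.11 and 9.29 in cohort 1 and 8.38, 8.80 and 9.09 in cohort 2. MNF replicates 1, 2 and 4 thus stood above every vehicle tumor, and the other 3 MNF tumors lay within the vehicle range. At least 3 MNF tumors above every vehicle tumor was also the case for 12.2% of the 7620 genes tested. The mean was 9.60 ± 0.83 (SD, n = 6) with MNF and 9.03 ± 0.40 (SD, n = 6) with vehicle, a difference of 0.56 (SE 0.27), or 1.48-fold, that did not pass the test (limma adjusted P = 0.65). It was 0.42 without MNF replicate 1 and 0.35 without MNF replicate 4.

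Irf1, a transcription factor that interferon gamma induces, was 11.49 to 13.02 (median 11.72) in MNF tumors and 11.64 to 12.23 (median 11.81) in vehicle tumors. MNF replicate 1, at 13.02, was the highest of the 12, MNF replicate 4, at 12.35, the next, and the groups overlapped. The MNF difference of 0.13 (SE 0.22) was smaller than the SD of either group (0.59 with MNF and 0.22 with vehicle, n = 6 each), and was -0.08 (SE 0.15) without MNF replicate 1.

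Among the guanosine triphosphatases, Igtp, a member of the immunity-related family known from the mouse as Irgm3, was tightly grouped in vehicle tumors at 7.75 to 7.92 (median 7.82, SD 0.07, n = 6). In MNF tumors it was 7.73 to 8.58 (median 7.92, SD 0.31, n = 6), with MNF replicates 1, 6 and 4 (8.58, 8.09 and 7.97) above every vehicle tumor. Of the 7620 genes tested, 12.2% had at least 3 MNF tumors above every vehicle tumor. The Igtp difference was 0.18 (SE 0.13, limma adjusted P = 0.75) with MNF replicate 1 and 0.06 (SE 0.08) without it. Gbp2, a guanylate-binding protein, was 10.68 to 11.45 (median 10.91) with MNF and 10.86 to 11.43 (median 11.06) in vehicle tumors. Gbp2 was the only one of the guanosine triphosphatases with a lower mean in MNF tumors, by -0.16 (SE 0.14, limma adjusted P = 0.80), and the groups overlapped. Mx1, a dynamin-like antiviral protein, was 7.07 to 7.91 (median 7.38) with MNF and 7.05 to 7.31 (median 7.20) in vehicle tumors, and 4 of 6 MNF tumors lay above every vehicle tumor. Of those 4, MNF replicates 3 and 5 were not detected (detection p-values 0.0218 and 0.0388), and 81.1% of all 22236 probes were higher with MNF. The Mx1 difference of 0.21 (SE 0.11, limma over all 22236 probes, adjusted P = 0.49) stands beside a median of 0.11 over all those probes. It was 0.12 without MNF replicate 1, beside a median of 0.05.

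Ifi44, an interferon-induced gene with an ISRE core on each side of its start, was 9.57 to 10.14 (median 9.72) with MNF and 9.21 to 9.95 (median 9.73) in vehicle tumors. The difference was 0.17 (SE 0.15, limma adjusted P = 0.80), and the lowest values were those of vehicle replicates 4 and 5 (9.21 and 9.31). The receptor Tlr2 was 8.05 to 9.46 (median 8.34) with MNF and 8.10 to 9.01 (median 8.49) in vehicle tumors, a difference of -0.01 (SE 0.22). Here MNF replicate 1 (9.46) and vehicle replicate 5 (9.01) were the highest tumors, and without the former the difference was -0.22 (SE 0.15). Cd14 was 9.85 to 10.38 (median 10.08) with MNF and 9.84 to 10.83 (median 10.15) in vehicle tumors, with vehicle replicate 5 the highest. Its difference was -0.13 (SE 0.14, limma adjusted P = 0.84), within the spread of both groups.

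**Figure D1:**
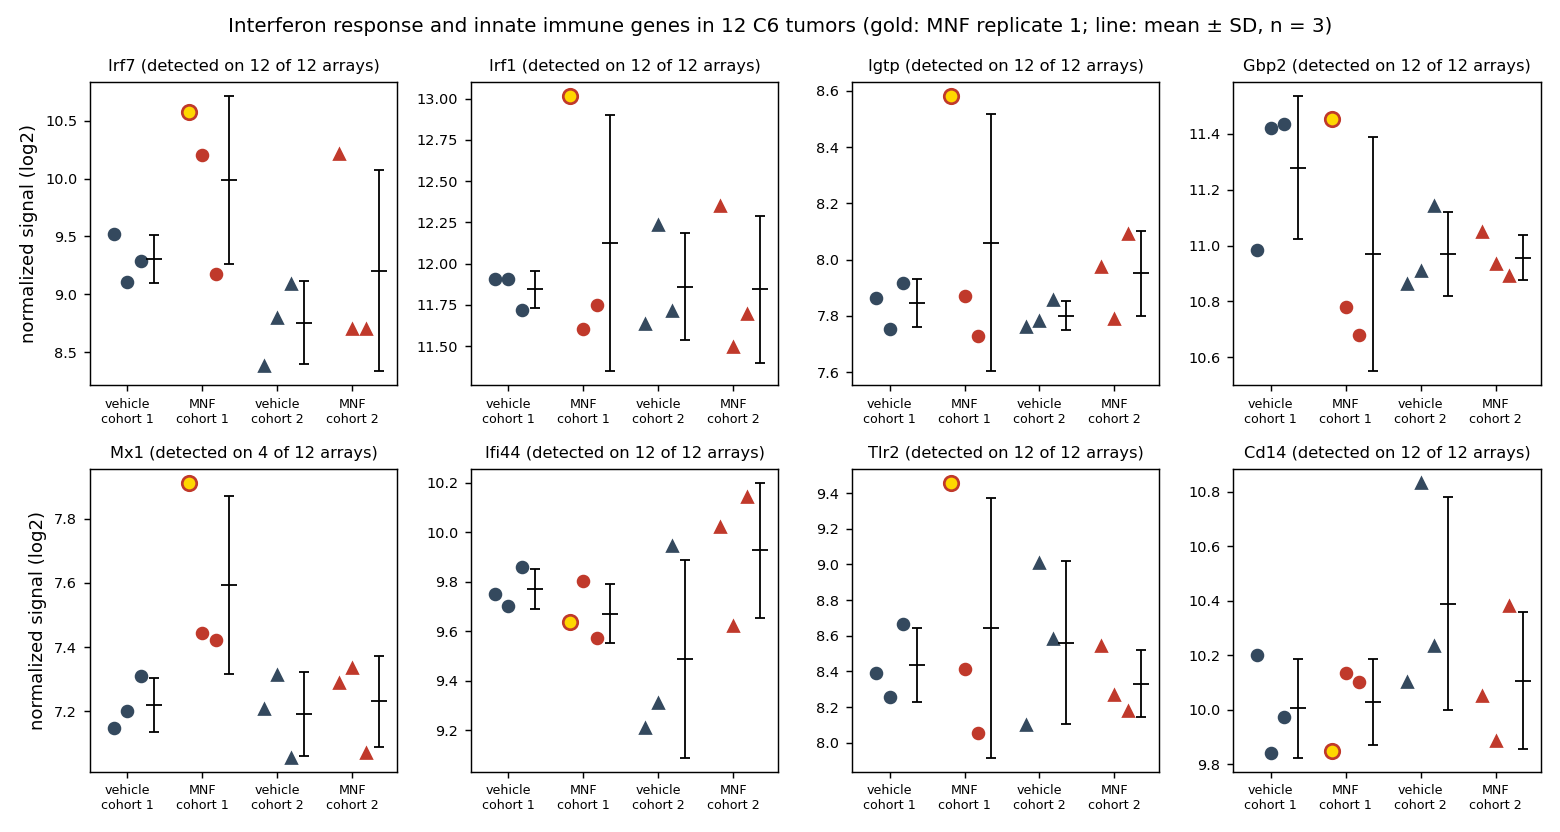
Normalized log2 signal of the 8 measured genes in each of the 12 tumors, by treatment and cohort (circles, cohort 1; triangles, cohort 2; black bars, mean ± SD of 3 tumors; each panel has its own scale). MNF replicate 1, in gold, is the highest tumor for Irf7, Irf1, Igtp, Gbp2, Mx1 and Tlr2 and among the lower ones for Ifi44 and Cd14. Mx1 was detected on 4 of the 12 arrays.

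Whether MNF altered these genes was asked over both cohorts with limma, with cohort as a covariate. No member passed an adjusted P of 0.05, as was true of all 7620 genes tested (0%). At an unadjusted P under 0.05 there were again 0 of 7 members, beside 7.99% of all genes tested (609 genes, 245 higher and 364 lower with MNF). Of the 7 members tested, 4 were higher and 3 lower with MNF (50.2% of all genes were higher), with a median difference of 0.13 beside 0.00 over all genes. With MNF replicate 1 left out, 3 were higher and 4 lower, with a median of -0.08. The 95% intervals set the size of change that the 12 tumors leave possible. They ran from -0.03 to 1.15 for Irf7, from -0.35 to 0.61 for Irf1, from -0.48 to 0.45 for Tlr2 and from -0.09 to 0.45 for Igtp. Exact permutation of treatment within cohort (two-sided, 400 arrangements, smallest possible P 0.005), run for each of the 8 genes, gave a P of 0.075 for Mx1, 0.145 for Irf7, 0.185 for Igtp, and 0.265 to 0.955 for the other 5.

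Within cohort 1, none of the 7 tested members passed an adjusted P of 0.05, beside 0% of all genes, and 0 of 7 had an unadjusted P under 0.05, beside 7.51%. The largest MNF difference in cohort 1 was that of Irf7, 0.68 (SE 0.40), with the highest vehicle tumor (9.52) above the lowest MNF tumor (9.18). Mx1 was the only one of the 8 genes whose groups did not overlap in cohort 1, with 7.91, 7.44 and 7.42 in MNF tumors and 7.15, 7.20 and 7.31 in vehicle tumors. Non-overlapping groups with MNF above vehicle were found in 7.93% of the 7620 genes tested (15.8% in either direction), to which Mx1, seldom detected, does not belong. Its difference of 0.37 (SE 0.14, adjusted P = 0.25 over all probes), or 0.21 without MNF replicate 1, stands beside a median of 0.20 over all probes in cohort 1, and 18.1% of all probes were higher at an unadjusted P under 0.05 in that cohort. Gbp2 was 11.45, 10.78 and 10.68 in the MNF tumors of cohort 1 and 10.98, 11.42 and 11.43 in the vehicle tumors. Its difference there was -0.31 (SE 0.19) with MNF replicate 1 and -0.55 (SE 0.15, limma adjusted P = 0.98, under 0.05 before adjustment) without it. Without that tumor 292 of 7620 genes were under 0.05 before adjustment in cohort 1.

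Within cohort 2, 0 of 7 members passed an adjusted P of 0.05 (0% of all genes) and 1 of 7, Ifi44, had an unadjusted P under 0.05, beside 10.1% of all genes. Ifi44 was 10.02, 9.62 and 10.14 in the MNF tumors and 9.21, 9.31 and 9.95 in the vehicle tumors of cohort 2, so that 1 vehicle tumor, replicate 6, lay within the MNF range. The difference was 0.44 (SE 0.19, limma adjusted P = 0.49). Of the 12 fits that left out 1 tumor, it passed in 1, that without vehicle replicate 6 (0.67, limma adjusted P = 0.049). That fit drops the vehicle tumor that overlapped the MNF tumors, and 171 of 7620 genes passed in it. In cohort 1 the MNF difference of Ifi44 was -0.10 (SE 0.19), with levels of 9.64, 9.81 and 9.57 against 9.75, 9.70 and 9.86. The difference between the cohorts, 0.54 (SE 0.27, limma adjusted P = 0.54), did not pass. No member's MNF effect, that of Ifi44 included, differed between cohorts at an unadjusted P under 0.05 with all 12 tumors. That was 0 of 7 members, beside 9.33% of all genes, and 0 of 7 passed an adjusted P of 0.05, beside 0%. For Gbp2 the difference between cohorts was 0.53 without MNF replicate 1 (SE 0.21, limma adjusted P = 0.65, under 0.05 before adjustment). In that setting 567 of 7620 genes were under 0.05 before adjustment.

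**Figure D2:**
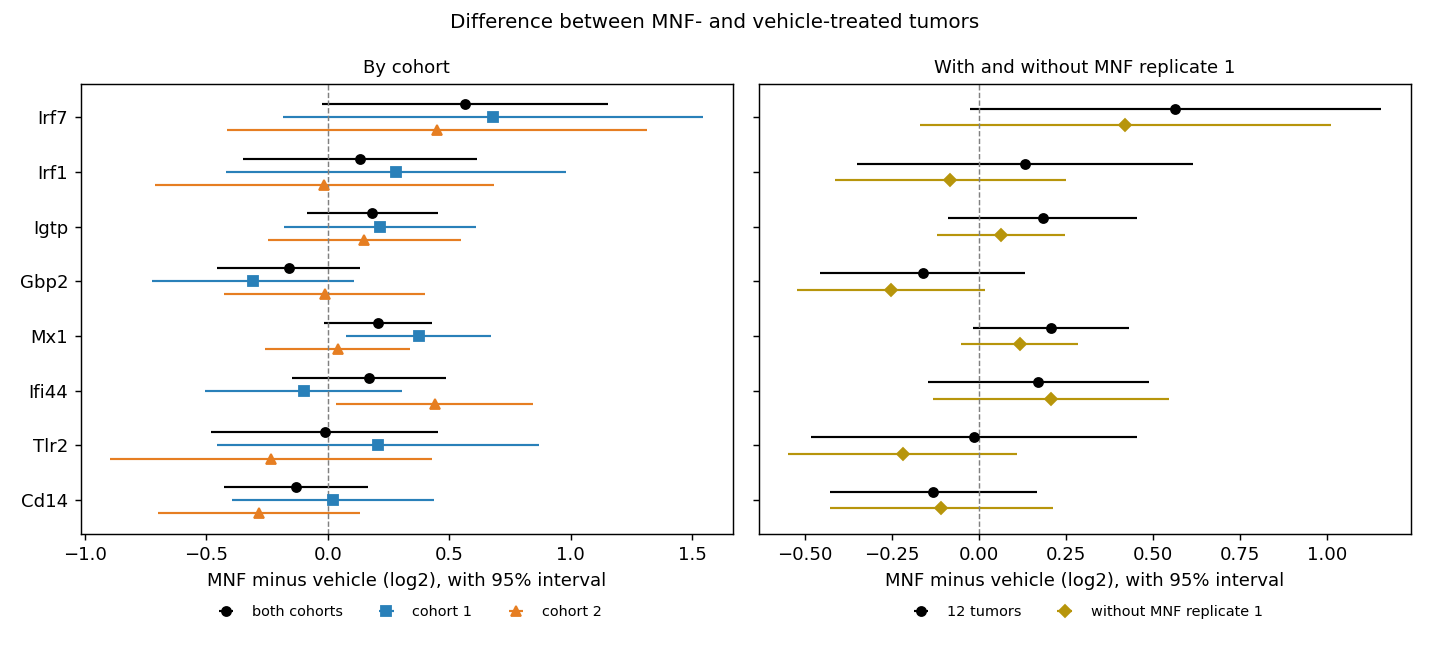
MNF minus vehicle difference (log2) of each gene with its 95% interval from limma, over both cohorts and within each (left panel), and over both cohorts with and without MNF replicate 1 (right panel). The interval of Ifi44 in cohort 2 (0.03 to 0.85) and that of Mx1 in cohort 1 (0.08 to 0.67) lie above 0, and without MNF replicate 1 the points for Irf7, Irf1, Igtp, Gbp2, Mx1 and Tlr2 move to lower values.

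The cohorts were compared over both treatments, as the levels at which untreated and treated tumors of each cohort stood. Irf7 was the member with the largest difference. It was 9.11 to 10.58 (median 9.40) in cohort 1 and 8.38 to 10.21 (median 8.75) in cohort 2, lower in cohort 2 by a fitted -0.66 (SE 0.27, limma adjusted P = 0.63). Of the 6 tumors of cohort 2, 5 lay below the lowest tumor of cohort 1, and MNF replicate 4 was the exception. Irf7 was the 1 of 7 members at an unadjusted P under 0.05, beside 7.65% of all genes, and 0 of 7 members passed the adjusted P, beside 0%. Of the 7 members tested, 1, Cd14, was higher in cohort 2 (0.23, SE 0.14, limma adjusted P = 0.68), and 6 were lower, with differences of -0.01 for Ifi44 to -0.66 for Irf7, where 50% of all genes were higher in cohort 2. Without MNF replicate 1, 4 were higher and 3 lower. Mx1 was lower by -0.19 (SE 0.11), beside a median of -0.06 over all probes. Exact permutation of cohort within treatment gave a P of 0.075 for Irf7, 0.1 for Mx1 and 0.165 to 0.94 for the other 6. The Irf7 difference without MNF replicate 1 was -0.52 (SE 0.27), no longer under 0.05 before adjustment, and those of Irf1, Igtp and Tlr2 turned to 0.08, 0.04 and 0.11.

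MNF replicate 1 was set beside the other 11 tumors as a description, with no test. It was the highest of 12 tumors for 5 of the 7 genes detected on every array, beside 19.5% of all genes tested for which it was highest and 18.5% for which it was lowest. For genes of mean level below the median, Igtp and Tlr2 among them, this tumor was highest in 24.4%, and for the rest in 14.7%. Mx1 was highest in it too, but so were 98.4% of the 11437 probes that no array detected, so its rank there is not read as a level of Mx1. Above the median of the other 11 tumors stood Irf7 by 1.47 (2.77-fold), Irf1 by 1.30 (2.46-fold), Tlr2 by 1.07 (2.09-fold), Igtp by 0.72 (1.65-fold) and Gbp2 by 0.52 (1.43-fold). The gap to the next tumor was 0.67 for Irf1, 0.49 for Igtp, 0.45 for Tlr2, 0.37 for Irf7 and 0.02 for Gbp2. Ifi44 held rank 8 of 12 in this tumor, at 9.64 beside a median of 9.75 in the others, and Cd14 rank 11, at 9.85 beside 10.10. Both transcription factors, the guanosine triphosphatases Igtp and Gbp2, and Tlr2 thus stood at the top of the 12 tumors in it, and the lipopolysaccharide co-receptor and Ifi44 did not.

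This array had the lowest mean log2 signal over the probes kept, 8.95 beside 9.37 to 10.13 on the others, and the lowest SD, 1.59 beside 1.62 to 1.74. In the deposited signals, before any scaling, MNF replicate 1 was the lowest of 12 for 83.5% of genes tested, and was within the highest 4 for 1.69%. Irf7 (911), Irf1 (4513), Igtp (246) and Tlr2 (438) each held rank 4 of 12 there and Gbp2 (1617) rank 10, while Ifi44 (493) and Cd14 (565) were lowest. Under 7 normalizations Irf7, Irf1, Igtp and Tlr2 stayed highest in this tumor, and Gbp2 held rank 1 or 2. The difference from the median of the others ranged from 1.36 to 1.79 for Irf7, 1.17 to 1.52 for Irf1, 0.89 to 1.5 for Tlr2, 0.47 to 1.08 for Igtp, 0.49 to 0.60 for Gbp2, -0.27 to 0.01 for Ifi44 and -0.37 to -0.20 for Cd14. The share of all genes for which this tumor was highest ranged from 11.9% to 26.1% over the same normalizations. It ranged from 5.70% to 40.2% for genes of mean level below the median and from 12.0% to 18.2% for the rest. The part of array brightness in these ranks was not tested beyond these settings.

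**Figure D3:**
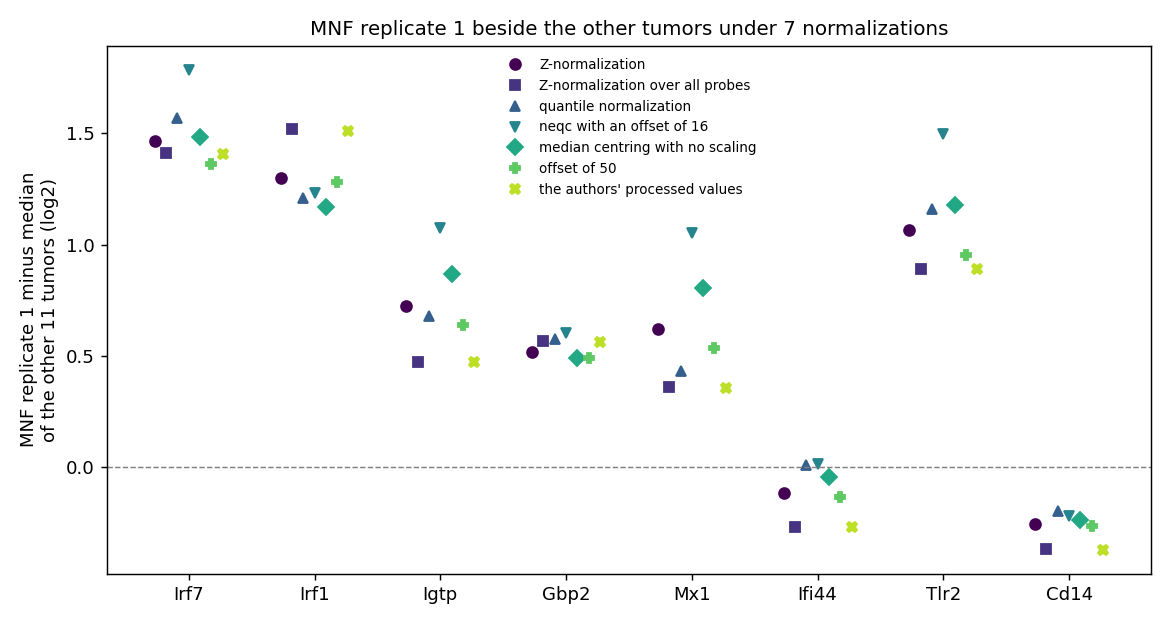
Level of each gene in MNF replicate 1 minus the median of the other 11 tumors (log2) under 7 normalizations. All points for Irf7, Irf1, Igtp, Gbp2, Mx1 and Tlr2 lie above 0, those for Cd14 below 0, and those for Ifi44 from -0.27 to 0.01.

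Spread within the MNF group moved with this tumor. The SD was larger in the MNF than in the vehicle group for 6 of 8 genes, Mx1 included (59.6% of all genes) and, without MNF replicate 1, for 4 of 8 (49.8%). For Tlr2 it was 0.51 with MNF and 0.32 with vehicle, and 0.19 in the 5 other MNF tumors. For Irf7 it stayed at 0.76 in those 5 tumors, since MNF replicates 2 and 4 were high as well.

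The members' levels over the 12 tumors were correlated in pairs as a description. The 12 points share arrays that differ in brightness, and the rank of MNF replicate 1 enters every pair. Pearson's r was above 0.5 for 11 of 28 pairs (median 0.33), the highest being 0.82 between Irf1 and Tlr2 and 0.75 between Irf1 and Igtp. The 28 pairs include those of Mx1, which was not above background on 8 arrays. Its pairs with Irf7, Irf1, Igtp and Tlr2 (0.64 to 0.67) are among the 11 and are not read as shared levels. No share above 0.5 over all pairs of genes is given beside these counts. Without MNF replicate 1 it was above 0.5 for 3 of 28 pairs (median 0.11). Those pairs were Igtp with Ifi44 (0.81, beside 0.28 with all 12), Tlr2 with Cd14 (0.56, beside 0.11) and Irf1 with Tlr2 (0.56). For Irf1 and Igtp r was then 0.11.

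For each member detected on every array, the named genes of most similar pattern over the 12 tumors were sought among 5509 others. Those nearest to Irf1 were RT1-DMa, a class II MHC chaperone subunit (r = 0.96), Fermt3, the kindlin of blood cells (0.95), and Ifi35, an interferon-induced gene (0.94), and r was 0.91, 0.90 and 0.88 without MNF replicate 1. Those nearest to Igtp were the class I heavy chains RT1-A2 (0.94) and RT1-A1 (0.91) and Rars2 (0.90), with r of 0.64, 0.45 and 0.27 without that tumor. Tlr2 was most like Ctsc, the protease cathepsin C (0.92), Plxdc2 (0.90) and Slc37a2 (0.90). Irf7 was most like Tmbim1 (0.82), Chmp2a (0.81) and Pck2 (0.81), and Gbp2 most like Tcf7l1 (0.75), Morn2 (0.72) and Psmb2 (0.71). Ifi44 went with Ubl3 (0.93), Rmdn1 (0.90) and Phf14 (0.90), and Cd14 with Aass (0.90), Thbs4 (0.87) and Sap30l (0.87). These are the highest of many values and carry no test.

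The rest of the pathway was read from lists of genes by role. The lists overlap, so their counts are not separate. Tap1 is in the antigen presentation list and among the other interferon-stimulated genes. Adar and Trim25 are among the latter and in the list of cytosolic sensing. All of these were highest in MNF replicate 1. None of the 6 interferon ligands with a named probe (Ifnb1, Ifng, 3 alpha interferons and Ifnk) was detected on any array, so no level is given for them. Of the 17 measured receptors and JAK-STAT genes, 13 were detected on every array. In these 13, 0 passed an adjusted P of 0.05 for MNF, 5 were higher and 8 lower, and the median difference was -0.01. Jak2, a kinase of the interferon gamma receptor, was 0.26 higher (SE 0.11, limma adjusted P = 0.61) and Jak1 0.19 higher (SE 0.10, adjusted P = 0.67). Next by P stood Stat3, a transcription factor downstream of cytokine receptors, at 0.18 (SE 0.10), and Ptpn2, a phosphatase that acts on JAK kinases, at -0.14 (SE 0.10). Of the other interferon regulatory factors 1 was detected on every array, Irf3 (difference 0.00, SE 0.12), as was Irf2bp1, a corepressor that binds IRF2 (0.05, SE 0.12).

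Other interferon-stimulated genes numbered 87, of which 55 had a named probe, 39 were detected on at least 1 array and 27 on every array. Of these 27, 21 were higher and 6 lower with MNF, with a median difference of 0.12 beside 0.00 over all genes, and 0 of 27 had even an unadjusted P under 0.05, beside 7.99% of all genes. Without MNF replicate 1, 18 were higher and 9 lower (median 0.05). Isg20, an exonuclease of single-stranded RNA with the smallest P of the list, was 0.18 higher (SE 0.08, limma adjusted P = 0.64). Ifi27l2b, an interferon alpha-inducible gene, was 0.48 higher (SE 0.25, adjusted P = 0.67), with 12.77 in MNF replicate 1, 12.51 in MNF replicate 3 and 12.25 in vehicle replicate 1, above 10.75 to 11.66 in the other 9. Ifitm1 (0.24, SE 0.14) and Fam111a (0.27, SE 0.16) followed by P. Between cohorts 3 of 27 were lower in cohort 2 at an unadjusted P under 0.05, and 0 of 27 higher, beside 3.88% and 3.77% of all genes. Isg20 was lower by -0.28 (SE 0.08, limma adjusted P = 0.52), Ifi27l2b by -0.65 (SE 0.25, adjusted P = 0.63), and Cxcl10, a chemokine that draws T cells, by -0.41 (SE 0.12, adjusted P = 0.52). Without MNF replicate 1, 2 of the 27 were lower at that threshold.

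Antigen presentation genes that interferon induces were read from 12 genes detected on every array. With MNF, 4 were higher and 8 lower (median difference -0.03), and 0 passed the adjusted P. The class I heavy chain RT1-A2 was 0.74 higher (SE 0.32, limma adjusted P = 0.61) and RT1-A1 0.57 higher (SE 0.31, adjusted P = 0.68), with B2m at 0.31 (SE 0.16) and the peptide-loading chaperone Tapbp at -0.11 (SE 0.10). Class I heavy chains are near-identical copies, and their probes may share signal. RT1-A2 was 12.87 in MNF replicate 1 and 10.20 to 10.98 in the other 11 tumors. RT1-A1 was 13.11 there and 10.65 to 11.26 elsewhere. Without it, the MNF differences were 0.37 (SE 0.11, limma adjusted P = 0.58) for RT1-A2, 0.21 (SE 0.11) for RT1-A1 and 0.14 (SE 0.09) for B2m, and 3 of the 12 genes were higher and 9 lower (median -0.13). At an unadjusted P under 0.05, 1 of the 12 (RT1-A2) was then higher and 3 lower, beside 2.6% and 4.5% of all genes. Those 3 were the immunoproteasome subunit Psmb9 at -0.35 (SE 0.14, limma adjusted P = 0.65), the proteasome activator Psme2 at -0.28 (SE 0.13, adjusted P = 0.69) and the transporter Tap2 at -0.32 (SE 0.12, adjusted P = 0.63).

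MNF replicate 1 was the highest tumor for 10 of the 12 antigen presentation genes under each of the 7 normalizations, beside 11.9% to 26.1% of all genes. In the deposited signals it was highest for 3 of the 12 (RT1-A1, RT1-A2 and Tap1), at rank 5 for Psmb8 and Psmb9, and at rank 7 to 12 for 7, B2m among them. B2m, the light chain of class I, was 15.99 in it and 14.66 to 15.14 in the others. The immunoproteasome subunits Psmb8 and Psmb9 stood 1.09 and 1.22 above the median of the other 11, and the peptide transporter Tap1 1.12 above. For the other interferon-stimulated genes the tumor was highest in 12 of 27 (8 to 13 under the 7 normalizations), among them Ifi27l2b, Upp1, Rtp4, Bst2 and Cxcl10 (1.53, 0.74, 0.67, 0.61 and 0.58 above the median of the others). Not all interferon-stimulated genes were high. Ifitm3, a membrane protein that restricts virus entry, was 10.64 in MNF replicate 1, beside a median of 11.93, and Ifi30 and Sp110 were lowest of 12 in it.

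**Figure D4:**
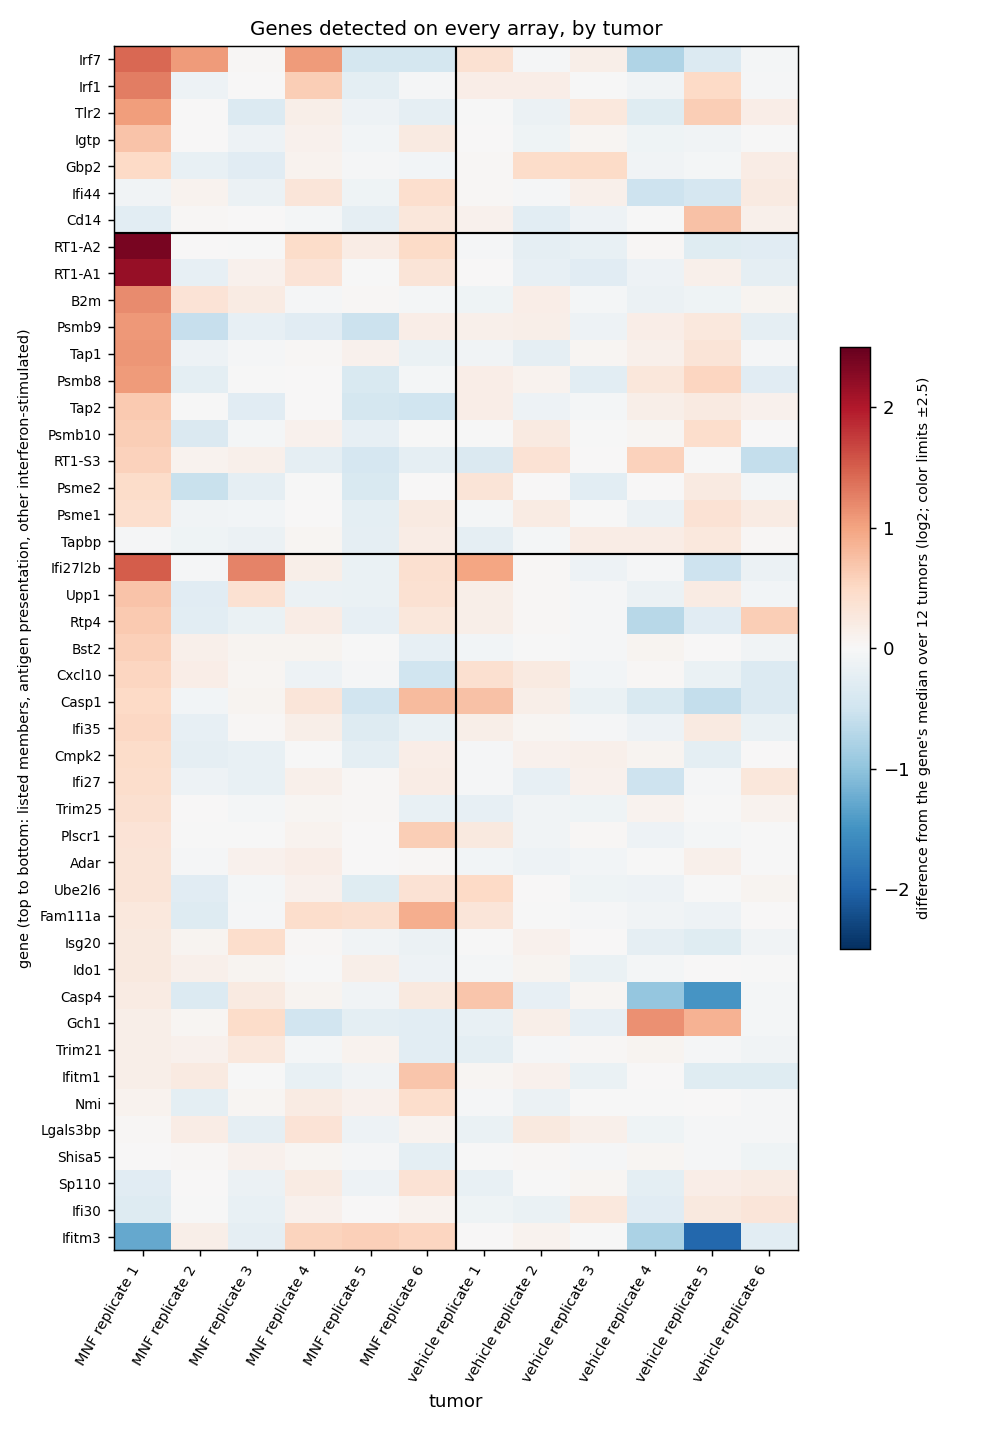
Difference of each gene from its own median over the 12 tumors (log2, color), for the 45 genes detected on every array among the members, the antigen presentation genes and the other interferon-stimulated genes, each block sorted by the level in MNF replicate 1. The column of MNF replicate 1 is red for most genes down to Isg20, and RT1-A2 and RT1-A1 are its darkest cells.

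Sensors and their adaptors were read the same way. Of the toll-like receptors and partners, 7 were detected on every array, 5 higher and 2 lower with MNF (median 0.03), with a range of -0.08 to 0.10. By P, the first 4 were the kinases of the NF-kB inhibitor Ikbkb (0.08, SE 0.08) and Chuk (0.10, SE 0.10), the adaptor Myd88 (0.04, SE 0.08) and its inhibitor Tollip (-0.08, SE 0.15). Of the genes that sense nucleic acids in the cytosol, 11 were, 9 higher and 2 lower (median 0.05). Mavs, the adaptor of RNA helicase sensors, was 0.25 higher (SE 0.08, limma adjusted P = 0.57). It was the 1 of 11 at an unadjusted P under 0.05, beside 7.99% of all genes. It was 7.98 to 8.31 in MNF tumors and 7.79 to 8.01 in vehicle tumors. Nod1, a sensor of bacterial peptidoglycan (0.14, SE 0.09), Adar, an RNA editing enzyme (0.13, SE 0.08), and Traf2, a signaling adaptor (0.08, SE 0.09), followed by P. MNF replicate 1 was highest for 6 of the 11, and for 0 to 8 over the 7 normalizations. Of the NF-kB factors and innate response genes, 12 were detected on every array, 7 higher and 5 lower (median 0.04), with 0 at an unadjusted P under 0.05, and MNF replicate 1 was highest for 0 of the 12. Those of smallest P were Sod2, the mitochondrial superoxide dismutase (0.17, SE 0.09), Nfkbia, the inhibitor that NF-kB induces (-0.18, SE 0.11), Rela, an NF-kB subunit (0.12, SE 0.08), and Vcam1, an adhesion molecule (0.51, SE 0.34). Ccl5, a chemokine of the same list detected on 2 of 12 arrays, was 10.30 in MNF replicate 1 beside a median of 7.15, and its deposited signal there, 763, was the highest of 12.

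Markers of other cells were read beside these results. Of 23 macrophage and microglia markers with a named probe, 15 were not detected on any array, among them Aif1, Itgam, Ptprc and C1qa, and 1, Cd68, was detected on every array. In MNF replicate 1, Cd68 was 9.12 (7.72 to 8.59 in the others) and Spi1, the factor of myeloid cells, 8.96 (7.26 to 8.47). Mrc1 was 8.42 (7.12 to 8.23) and Cybb, an oxidase subunit of phagocytes, 8.16 (6.84 to 7.51) in it. After normalization each was the highest of 12, but in the deposited signals none was. There vehicle replicate 1 was above it for Cd68 (417 beside 350), Mrc1 (412 beside 221) and Cybb (191.4 beside 187.5), and vehicle replicate 5 for Spi1 (328 beside 316). The summed level of the 23 was 5009 in MNF replicate 1, beside 2868 to 3582 in the other 11, but the never-detected ligands moved likewise, 1030 beside 676 to 791. The number of these 23 markers detected was 4 in MNF replicate 1 and 1 to 6 in the others. Of 25 lymphocyte and natural killer markers 4 were detected in it and 0 to 1 in the others, and of 12 neutrophil markers 2 and 0 to 1. Cd3d, a T cell receptor subunit, Klrd1, a receptor of natural killer cells, and Blk, a B cell kinase, were detected in this tumor only (detection p-values 0.00364, 0.0109 and 0.0133). Prf1, the perforin of cytotoxic cells, was detected in it and in 2 other MNF tumors, replicates 2 and 5, and in 0 vehicle tumors. Other lymphocyte markers went the other way. Cd3e was detected on 4 arrays and Gzmk on 1, but neither in MNF replicate 1. Of the 25 lymphocyte and natural killer markers 19 were not detected on any array, Cd3g, Cd4, Cd8a and Lck among them. Since 98.4% of never-detected probes were highest in this tumor, the sums and the levels of markers missed on other arrays are not read as more of these cells. These markers are rat probes, so they read host cells only through similar sequence, and their part in the interferon results was not tested. Skeletal muscle transcripts, whose summed level ran from 2838 to 217716 over the tumors, were at 21513 in MNF replicate 1, rank 6 of 12, and hemoglobin and endothelial transcripts at 50961, rank 2 of 12 (8304 to 91124 in the others). Of the 4 muscle genes detected on every array, 3 were higher with MNF (median difference 1.76). At an unadjusted P under 0.05, 2 of 4 were higher, beside 3.22% of all genes (Myl1, 1.86, SE 0.79, and Tnnc2, 1.97, SE 0.88, limma adjusted P = 0.61 for each). Compared with cohort 1 over both treatments, all 4 muscle genes were higher in cohort 2 at that threshold, beside 3.77% of all genes (median 3.19, lowest limma adjusted P = 0.52). Their part in the differences of the members between treatments and cohorts was not tested.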

How the data were processed

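RNA of 12 C6 tumors was measured on Illumina RatRef-12 arrays, 1 per tumor. Per array and for each of 22517 probes, the authors deposited 1 unnormalized signal intensity and 1 detection p-value, read out with GenomeStudio, whose version the submitters' processing notes give as 1.6.0. A second deposited table holds 1 processed score per array for 11080 probes, which equals within 0.0124 the Z score of the log10 signals over all probes. The platform annotation gives 13259 probes 1 symbol, 0 several, and leaves 9258 unnamed here. The genome build behind the probes is not given in the sources used here. Groups, replicate numbers and cohorts came from the sample labels.

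Probes detected at a p-value under 0.02 on all 12 arrays (7677) were kept. Log2 signals were centred and scaled per array over these probes, a Z-normalization as in the paper's methods but over fewer probes than the deposited scores, and rescaled to log2 units by the mean SD. The brightest probe stood for each gene, which left 7620 genes and unnamed probes. A member that failed the filter (Mx1) was read from the same fit over all 22236 genes and unnamed probes. MNF and vehicle tumors were compared in limma 3.58.1 under R 4.3.3, the cohort entering lmFit as covariate before eBayes, cohorts within treatment in the same fit, and effects within cohorts and their difference in a model of 4 groups, with Benjamini-Hochberg adjustment at 0.05 over all features. The fit was also run on simulated data, with independent normal noise for each gene and no array effects. That run therefore does not cover a dim array. Single genes were also compared by exact permutation over samples. The paper calls the samples independent biological samples. The highest correlation of 2 arrays was 0.990, and each array was taken as its own sample. Precision is limited by the number of arrays (6 per treatment, 3 in each cohort). The members and the lists of the pathway and cell types were chosen with earlier results of these data known.

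Named were all 9 members, from each list of the pathway up to 4 genes of smallest P for MNF (fewer from the cell type lists, given by counts and sums), genes at an adjusted P under 0.05 (none), and for each member the 3 genes of highest correlation. Genes named for their level in MNF replicate 1, for a cohort difference or as markers were chosen after their values were seen. Alternatives were 6 other normalizations or offsets, other filters, every probe, array quality weights, no cohort covariate, the replicate number as a block, and leaving out each tumor. Counts of members highest in MNF replicate 1 by normalization, and the alternatives for the effects within each cohort, were added after seeing the data.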

Additional observations from a re-analysis of the deposited data

Results flagged for a closer look

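Tlr2 in MNF replicate 1 stood apart from the other 5 tumors of the MNF group. Its level was 9.46, the next MNF tumor was at 8.54, and this gap was 0.654 of the group's range, above Dixon's critical value of 0.625 for 6 samples. It was the 1 such value in 16 groups of 6 tumors (8 genes, 2 treatments), near the share of about 5% of groups that chance gives. MNF replicate 1 had been singled out with results of these data known, so the flag is a description and not a test.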

How the results depend on the processing

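Of 912 values of single genes under an alternative, 855 kept direction and side of the threshold, 55 changed sign, none of them past the threshold, and 2 passed where the reported value did not. These 2 were Mx1 in cohort 1 with array quality weights (0.20, limma adjusted P = 0.013), where 12476 of the 22236 genes and unnamed probes of its fit passed, and Ifi44 in cohort 2 without vehicle replicate 6 (0.67). Over the filtered genes, the count for MNF against vehicle stayed at 0 under every alternative. Over all probes, it was 0 except with the replicate block (49), without vehicle replicate 5 (2) and without MNF replicate 1 (1). The cohort comparison, with 0 genes passing, gave 31 with array quality weights and 0 to 46 when 1 tumor was left out (46 without vehicle replicate 4). MNF in cohort 1 gave 1 with no filter, 1 with weights and 0 to 1 when 1 tumor was left out (1 without vehicle replicate 4). MNF in cohort 2 gave 5 with weights and 0 to 171 when 1 tumor was left out, and the difference between cohorts 1 with weights and 0 to 50, both highest without vehicle replicate 6. The causes were not tested. The number of members highest in MNF replicate 1, Mx1 included, was 6 or, with median centring or an offset of 50, 5.

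With weights, the sign changed for MNF in Irf1 (-0.0026), for cohort in Igtp (0.026), Ifi44 (0.065) and Tlr2 (0.13), for cohort 1 in Tlr2 (-0.094), for cohort 2 in Irf1 (0.0037) and Gbp2 (0.046), and for the difference between cohorts in Irf7 (0.49) and Igtp (0.11). With Z-normalization over all probes and with the authors' processed values it changed for cohort in Ifi44 (0.0047 and 0.0050), for cohort 1 in Cd14 (-0.027 and -0.028) and for the difference in Igtp (0.058 and 0.058). With quantile normalization and neqc it changed for cohort 2 in Irf1 (0.0042 and 0.0032), and with median centring for MNF in Tlr2 (0.023).

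Leaving out 1 tumor moved the MNF difference of Irf7 over 0.35 to 0.73, of Mx1 over 0.12 to 0.26 (0.21 to 0.46 in cohort 1), of Irf1 over -0.082 to 0.23 and of Tlr2 over -0.22 to 0.11, and the cohort difference of Irf1 over -0.23 to 0.084, Igtp -0.15 to 0.043, Ifi44 -0.091 to 0.079 and Tlr2 -0.22 to 0.11. In cohort 1 the ranges were -0.17 to 0.54 (Irf1), -0.045 to 0.38 (Igtp), -0.20 to 0.50 (Tlr2) and -0.060 to 0.12 (Cd14). In cohort 2 they were -0.053 to 0.70 (Irf7), -0.27 to 0.17 (Irf1), -0.068 to 0.072 (Gbp2) and -0.029 to 0.12 (Mx1). For the difference between cohorts they were -0.73 to 0.063 (Irf7), -0.55 to 0.15 (Irf1) and -0.23 to 0.20 (Igtp).

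With the replicate number as a block, 0 of the filtered genes passed for MNF (49 over all probes, 44 higher and 5 lower) and 540 had an unadjusted P under 0.05 (609 without it), and the adjusted P of Irf7 was 0.71. The numbers do not pair the tumors: deviations of same-numbered tumors correlated at -0.19 to 0.38, and for 2 of 6 numbers the correlation was highest within the number. Of genes at an unadjusted P under 0.05 for MNF, 245 of 609 were higher, but 144 of 687 with Z-normalization over all probes and 1441 of 1853 with no filter, where the median of all probes was 0.11. Limits are the 3 tumors per treatment and cohort, 1 dim array, and probes such as that of Mx1 near background.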
